A study of Homo sapiens with 6 samples.

Results

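The insulin-like growth factor (IGF) binding proteins were measured in subcutaneous tumours of nude mice that had received Huh7 cells, an established human line of hepatocellular carcinoma. The members are IGFBP1 to IGFBP7 and IGFALS, found as the rows of the deposited array table whose Entrez gene ID belongs to these symbols, and all 8 of 8 were present among 23931 named genes, on 24726 probe sets. In 3 tumours the injected cells carried a stably transfected expression plasmid, with green fluorescent protein, for the human insulin receptor in its isoform A (IR-A). In the other 3 tumours, the controls, they carried the empty vector. Cells of both groups had been selected with G418 and by cytometry for fluorescence, and the labels do not say whether each line was 1 clone or a pool. The labels do not name the mouse or the culture behind each tumour either, so the p-values speak only of the spread among these samples, and that spread may be technical. 1 array was run per tumour, and the number of arrays limits the precision.

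The IGF binding proteins are secreted proteins that hold IGF-1 and IGF-2 in the circulation and in tissue and control how much of either ligand reaches the IGF-1 receptor and IR-A, which binds IGF-2 as well as insulin. IGFBP1 to IGFBP6 bind IGFs with high affinity, whereas IGFBP7 binds them weakly. IGFALS, the acid labile subunit, is a liver protein that joins IGFBP3 or IGFBP5 and an IGF in the large complex that carries most circulating IGF. In liver, hepatocytes make IGFBP1, whose transcription insulin represses, and also IGFBP2 and IGFALS, while much of the hepatic IGFBP3 comes from non-parenchymal cells.

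Values are log2 signals, so a difference of 1 is a doubling, written here as IR-A mean minus control mean. The transcript of the overexpressed gene, INSR, read 8.04, 7.61 and 8.47 in control tumours 1 to 3 and 10.65, 11.31 and 11.01 in IR-A tumours 1 to 3. The group labelled IR-A thus had more INSR signal in every tumour, and this gene-level probe set does not show which isoform it came from. Markers of hepatocytes and of Huh7 such as ALB, AFP and GPC3 were among the brightest probe sets, since all 14 measured of 15 listed lay at or above the percentile 98.2 of mean signal. Control tumour 2 stood apart from its group. Over all probe sets its mean correlation was 0.9816 with the other controls and 0.9865 with the IR-A tumours. Array medians ran from 4.663 to 4.744.

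No member passed the test of the comparison. In limma's moderated test 0 of 8 members had an adjusted p under 0.05, where 0% of all probe sets did, and 2 of 8 (25%) had an unadjusted p under 0.05, where 14.1% of all probe sets did. These 2 were IGFBP3, with higher signal in IR-A tumours, and IGFBP2, with lower signal. They were also the 2 members whose groups did not overlap, 1 in each direction, where groups did not overlap in 17.2% of all probe sets, 7.73% wholly higher and 9.45% wholly lower. The share of members in either count rests on 2 genes and is not read as a result about the family. The members were chosen with earlier results of these data known. The median difference of the members was 0.10, and that of all probe sets was -0.026. The median absolute difference was 0.26 for the members and 0.13 for all probe sets.

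**Figure D1:**
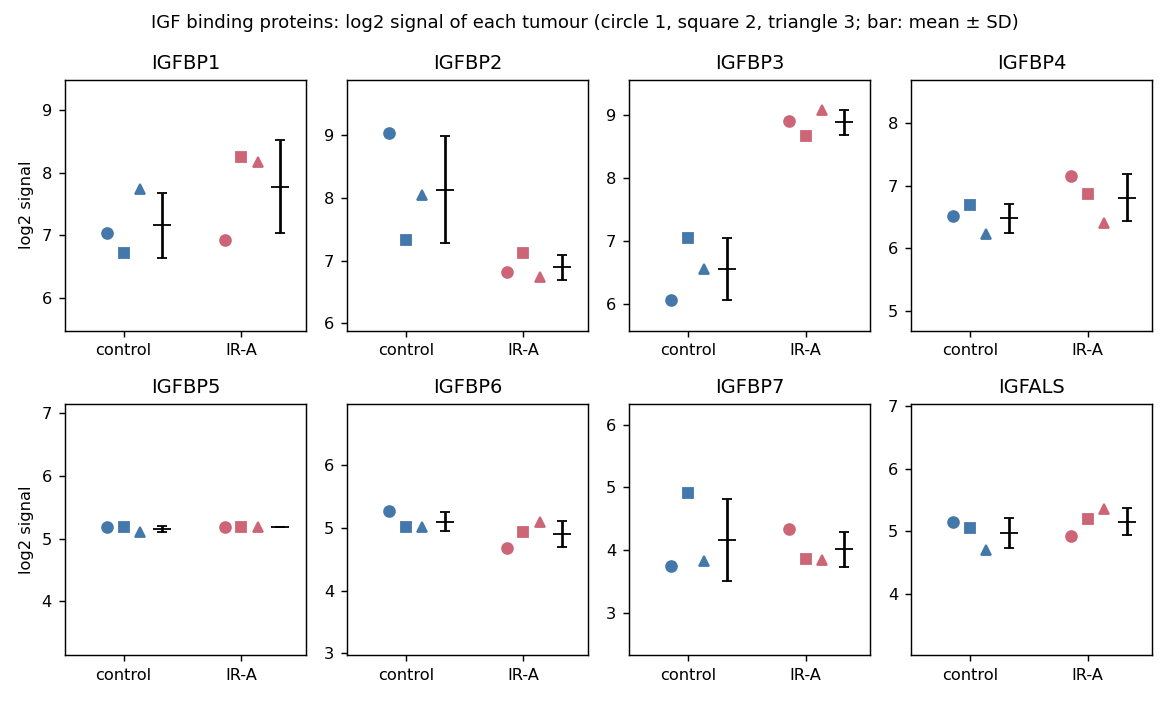
Log2 signal (vertical axis, a span of 4 units in each panel) of the 8 members in the control (blue) and IR-A (red) tumours. Circles, squares and triangles are tumours 1, 2 and 3, and the bar gives the mean ± SD of 3 tumours. IGFBP3 lies wholly higher in IR-A tumours, IGFBP2 wholly lower, and the groups of the other 6 members overlap.

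IGFBP3, the main IGF carrier of plasma, had the largest difference of the family. Its control tumours read 6.06, 7.05 and 6.55 and its IR-A tumours 8.91, 8.68 and 9.08. Every IR-A tumour was therefore above every control, with a gap of 1.63 between the highest control, tumour 2, and the lowest IR-A tumour. The control mean was 6.55 ± 0.50 (SD, n = 3), and the IR-A mean was 8.89 ± 0.20 (SD, n = 3). The difference of 2.34 (SE 0.25, 95% interval 1.73 to 2.94) is a 5.05-fold higher signal, with an interval from 3.32 to 7.69. The limma p was 5.23e-05, rank 16 of all probe sets, and the adjusted p was 0.0809. Only 0.093% of probe sets had a larger absolute difference. Without control tumour 2 the difference was 2.58 and the limma adjusted p was 0.0261. The adjusted p was also under 0.05 with array weights (0.0480) and when the dimmest 25% (0.0471) or 50% (0.0351) of probe sets were dropped, and over all 14 other settings of the fit or the tumours it ran from 0.0261 to 0.458. An exact two-sided permutation test gave p = 0.1, the smallest that 3 against 3 tumours allow.

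IGFBP2, a binding protein made by fetal liver and by many tumours, differed the other way. Its control tumours read 9.03, 7.33 and 8.04 and its IR-A tumours 6.82, 7.12 and 6.74. All IR-A tumours were below all controls, but the gap was only 0.21, and the controls were spread over 1.70 against 0.39 in IR-A tumours. The control mean was 8.14 ± 0.85 (SD, n = 3) and the IR-A mean 6.89 ± 0.20 (SD, n = 3), a difference of -1.24 (SE 0.40, 95% interval -2.21 to -0.28). Control signal was thus 2.37-fold that of IR-A tumours, with an interval from 1.21 to 4.62. The limma adjusted p was 0.256 (unadjusted 0.0189), and the exact permutation p was again 0.1. The size depended on single controls. The difference was -0.80 without control tumour 1, the highest, and -1.65 without control tumour 2 (limma adjusted p = 0.0706). For both IGFBP2 and IGFBP3, control tumour 2 was the control nearest to the IR-A tumours.

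Promoter sequence, the 250 bases before a transcription start in RefSeq on build GRCh38.p14, is shown for these 2 genes because they had the largest differences. The IGFBP3 window lies at chr7:45921273-45921522 on the minus strand. RefSeq lists 3 starts for IGFBP2, and the window of the most upstream one, at chr2:216632578-216632827 on the plus strand, is shown. Capitals mark a TATA motif (TATAAA or TATATA on the gene's strand, searched from 40 to 20 bases before the start) and the GC box GGGCGG on either strand, read 5′ to 3′.
IGFBP3: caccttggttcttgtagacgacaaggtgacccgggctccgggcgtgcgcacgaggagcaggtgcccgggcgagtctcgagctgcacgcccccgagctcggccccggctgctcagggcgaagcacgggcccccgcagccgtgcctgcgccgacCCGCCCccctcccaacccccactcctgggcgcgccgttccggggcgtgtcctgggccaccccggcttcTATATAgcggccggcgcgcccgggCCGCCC
IGFBP2: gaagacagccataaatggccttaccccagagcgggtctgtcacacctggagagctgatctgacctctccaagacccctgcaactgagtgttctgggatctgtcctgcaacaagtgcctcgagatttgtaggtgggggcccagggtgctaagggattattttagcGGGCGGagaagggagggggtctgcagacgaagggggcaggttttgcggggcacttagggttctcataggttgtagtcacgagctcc
The IGFBP3 window holds TATATA 30 bases before the start, a motif class present in 3.12% of 35116 windows, and 2 GC boxes. It is GC-rich, with 76.0% G or C against a median of 58.0% over all windows, and has 32 CG dinucleotides where the median is 11. The IGFBP2 window shown has 1 GC box, no TATA motif at that distance, 56.8% G or C and 7 CG dinucleotides. The second IGFBP2 start has 69.2% G or C and 22 CG dinucleotides, and the third 56.4% and 4. GGGCGG occurs in 42.6% of all windows. These are letter matches, and the array gives 1 value per gene and does not show which start was used.

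The forkhead motif TGTTTAC, searched on both strands, was found in 2.98% of all windows, and among the 8 windows of the 6 members with an entry it occurred in 1, that of IGFBP6. CAAAACA, a core of the insulin response element, occurred in 4.3% of all windows and in none of these 8. The members without an entry were IGFBP1 and IGFBP7. The window of IGFBP4 held TATAAA 29 bases before its start.

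IGFBP1, a hepatocyte protein whose gene FOXO factors activate and insulin represses, had overlapping groups. The control tumours read 7.03, 6.72 and 7.73 and the IR-A tumours 6.92, 8.24 and 8.17. IR-A tumours 2 and 3 were above every control, whereas IR-A tumour 1 was below 2 of the 3 controls. The difference was 0.61 (SE 0.41, 95% interval -0.38 to 1.60, limma adjusted p = 0.581). Without IR-A tumour 1 it was 1.04, with an unadjusted p of 0.0178 and an adjusted p of 0.490 in limma. This tumour was the only IR-A tumour within the control range, so leaving it out had to end the overlap. Without it, groups did not overlap in 23% of all probe sets. IGFBP1 and IGFBP3 are next to each other in the RefSeq gene order of chromosome 7. The upper bound of the interval for IGFBP1 (1.60) was below the lower bound for IGFBP3 (1.73), and the difference between the 2 genes was not itself tested.

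IGFBP4, which mostly holds IGFs away from their receptor until the protease PAPPA cuts it, read 6.52, 6.69 and 6.23 in control and 7.15, 6.87 and 6.41 in IR-A tumours. IR-A tumours 1 and 2 were above all controls and IR-A tumour 3 was within their range. The difference was 0.33 (SE 0.21, 95% interval -0.18 to 0.84, limma adjusted p = 0.565). It was 0.53 without IR-A tumour 3 (limma unadjusted p = 0.0295, adjusted p = 0.348) and 0.16 without IR-A tumour 1. Leaving out IR-A tumour 3, the only IR-A tumour within the control range, had to end the overlap. Without it, groups did not overlap in 26.8% of all probe sets.

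IGFBP5, the other partner of IGFALS, showed next to no variation. Its control tumours read 5.18, 5.19 and 5.10 and each IR-A tumour 5.18. The deposited value was identical on 4 of 6 arrays, which was so for 1.92% of all probe sets. The difference was 0.020 (95% interval -0.18 to 0.22, limma adjusted p = 0.946). IGFBP5 is next to IGFBP2 in the gene order of chromosome 2, so of this adjacent pair IGFBP2 carried the difference of -1.24.

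IGFBP6, which prefers IGF-2 over IGF-1, read 5.27, 5.02 and 5.01 in control and 4.68, 4.94 and 5.09 in IR-A tumours. IR-A tumours 1 and 2 were below all controls and IR-A tumour 3 was within their range. The difference was -0.20 (SE 0.14, 95% interval -0.53 to 0.13, limma adjusted p = 0.594). The genes next to it on chromosome 12 were SPRYD3, with a difference of 0.12 (SE 0.18), and the cholesterol-esterifying enzyme SOAT2, with 0.64 (SE 0.32). TNS4, next to IGFBP4 on chromosome 17, differed by -0.10 (SE 0.17), and the direct neighbours of IGFBP7 and IGFALS were not analysed here.

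IGFALS read 5.15, 5.06 and 4.71 in control and 4.92, 5.20 and 5.35 in IR-A tumours. Its groups overlapped, with IR-A tumour 1 inside the range of the controls. The difference was 0.19 (SE 0.16, 95% interval -0.20 to 0.58, limma adjusted p = 0.679). A p that misses the threshold does not show that IGFALS and IGFBP5 were equal between the groups. The upper bound for IGFALS is a 1.49-fold higher signal and that for IGFBP5 a 1.16-fold higher signal.

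IGFBP7, a protein of vessel walls and matrix, was the dimmest member and the only 1 below the median probe set (4.71). The control tumours read 3.75, 4.91 and 3.82 and the IR-A tumours 4.34, 3.86 and 3.85. Control tumour 2 was the highest of all 6, and the other controls were below every IR-A tumour. The difference was -0.14 (SE 0.33, 95% interval -0.93 to 0.65, limma adjusted p = 0.895) and turned to 0.23 without control tumour 2 (adjusted p = 0.502). With array weights it was 0.013.

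**Figure D2:**
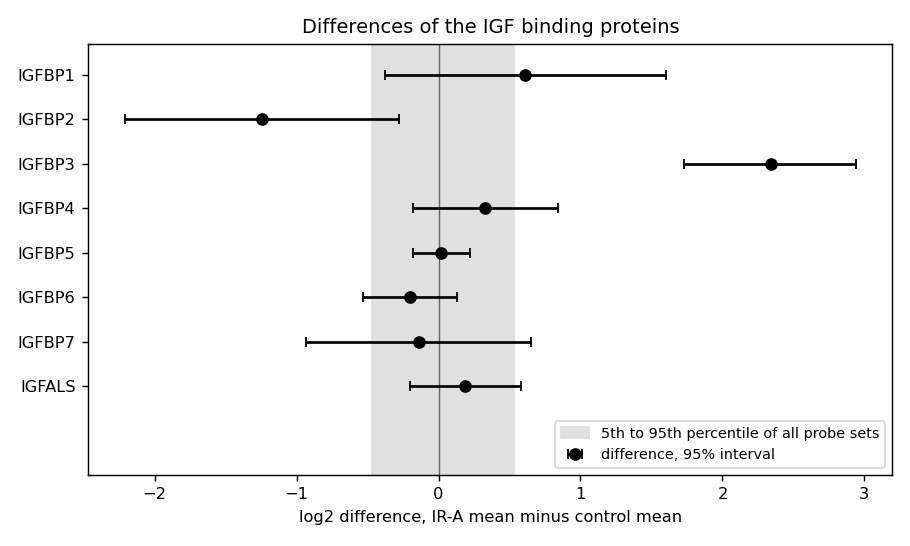
Log2 difference, IR-A mean minus control mean (horizontal axis), of each member with its moderated 95% interval from limma. The grey band holds the differences of all probe sets from the 5th to the 95th percentile (-0.47 to 0.53); IGFBP2 (-1.24), IGFBP3 (2.34) and IGFBP1 (0.61) lie outside it, and only the intervals of IGFBP2 and IGFBP3 leave out 0.

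**Figure D3:**
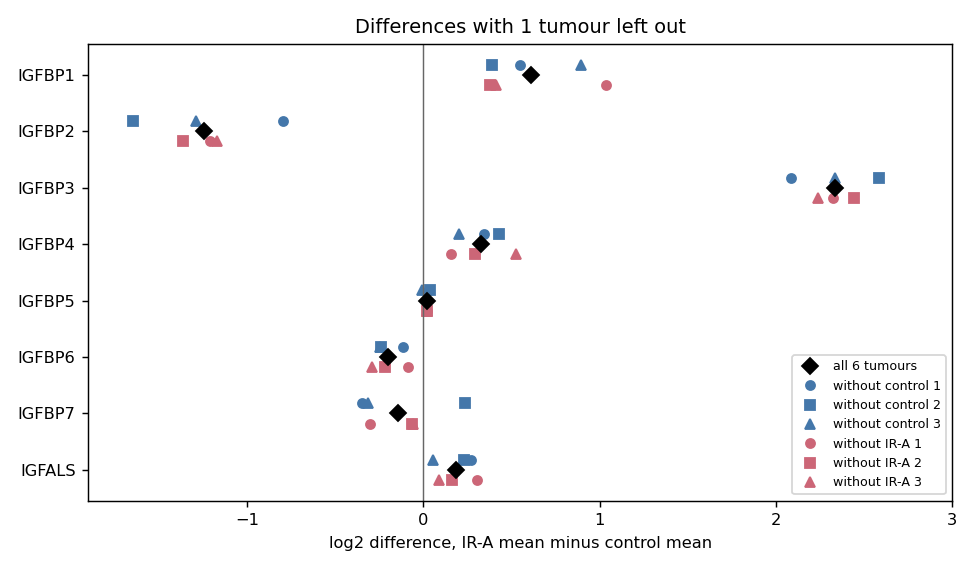
Log2 difference of each member with all 6 tumours (black diamonds) and with 1 tumour left out (blue, a control; red, an IR-A tumour). IGFBP3 stays between 2.09 and 2.58 and IGFBP2 between -1.65 and -0.80, while IGFBP7 and IGFBP5 cross 0.

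The genes whose profile over the 6 tumours was most like that of IGFBP3 were found by the root mean square difference of values, after each gene was centred on its own mean, among 23930 other genes. IFITM2, an interferon-induced antiviral membrane protein, was closest (0.208), followed by LBP, the lipopolysaccharide-binding protein of the acute phase (0.231), and hemopexin, HPX, a plasma haem carrier (0.249). The median over all genes was 1.23. Their differences were 2.14 for IFITM2, 2.23 for LBP and 2.23 for HPX, with limma adjusted p values of 0.0932, 0.0769 and 0.147. IFITM2 has close paralogs, and whether its probe set separates them was not checked. In IGFBP3, IFITM2, LBP and HPX alike, control tumour 2 was the highest control. IFITM2, LBP and HPX were picked for likeness to IGFBP3 over the same tumours, so this shared order follows largely from that choice.

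The closest profiles to IGFBP2 were those of MAP1B, a microtubule-associated protein (0.214), HDGFL3, a relative of hepatoma-derived growth factor (0.221), and PRTG, an immunoglobulin superfamily protein of the embryo (0.236), where the median over all genes was 0.797. Like IGFBP2 at 9.03, these genes were highest in control tumour 1, at 6.27 for MAP1B, 5.60 for HDGFL3 and 8.72 for PRTG. Their differences were -1.26, -0.85 and -0.94, with limma adjusted p values of 0.267, 0.376 and 0.327. These genes were picked for likeness, so their differences and their shared high value in control tumour 1 are a description.

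**Figure D4:**
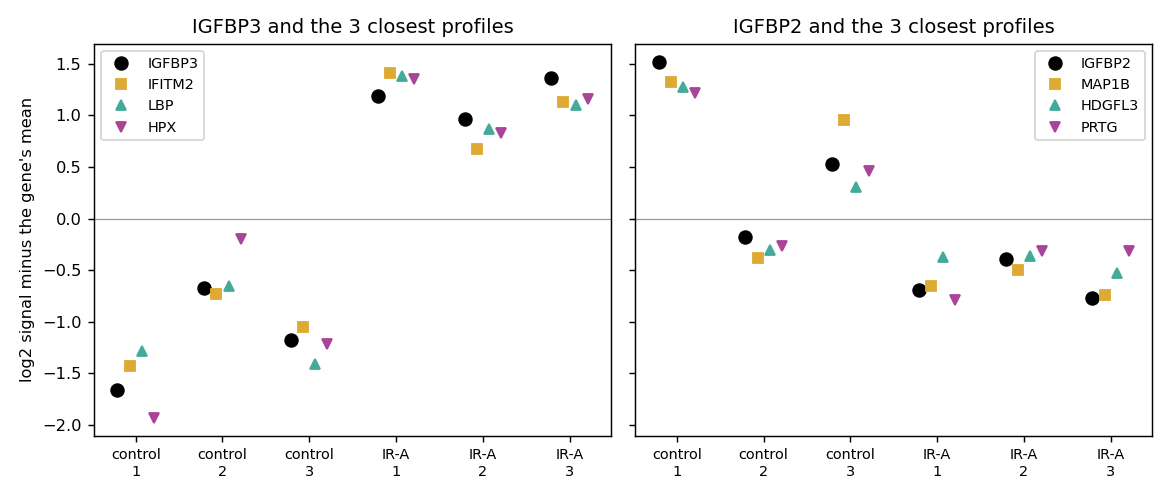
Log2 signal minus the gene's own mean (vertical axis) in each tumour for IGFBP3 (left, black) with IFITM2, LBP and HPX, and for IGFBP2 (right, black) with MAP1B, HDGFL3 and PRTG. The groups do not overlap in any of these 8 genes, and in 17.2% of all probe sets they do not. IGFBP2 and its closest genes are highest in control tumour 1, and their control tumour 2 lies close to the IR-A tumours. The closest genes were picked for likeness over these same tumours, so the shared patterns follow largely from that choice.

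Of the 7 ligands and receptors around the binding proteins, 1 passed an unadjusted p of 0.05 in limma, where 14.1% of all probe sets did. This was INSR itself, the overexpressed gene (difference 2.95, SE 0.26, adjusted p = 0.0769), so the count is not read as a result about the list. The list's median difference was 0.14. IGF2, the ligand that binds IR-A, read 6.83, 6.61 and 6.85 in control and 6.64, 6.93 and 6.62 in IR-A tumours, a difference of -0.033 (95% interval -0.34 to 0.27). IGF1 differed by 0.22 (SE 0.32), the scavenger receptor IGF2R by 0.14 (SE 0.34) and the orphan receptor INSRR by -0.13 (SE 0.17). INS had a low mean signal, 3.89 in control and 4.22 in IR-A tumours, a difference of 0.33 (SE 0.15, limma adjusted p = 0.398). The groups of INS did not overlap, with the highest control at 3.98 and the lowest IR-A tumour at 4.01.

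IGF1R, the main IGF receptor, read 5.85, 3.72 and 3.60 in control and 3.49, 3.53 and 3.34 in IR-A tumours. Its groups did not overlap, yet control tumour 1 alone was far above the rest, and the difference of -0.94 (SE 0.58) had a limma adjusted p of 0.542. Control tumour 1 was also the tumour with the highest IGFBP2 and the lowest IGFBP3.

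Proteases that cut binding proteins, and the stanniocalcins that inhibit the pappalysins, made a list of 19 genes, all measured. In limma 0 passed adjusted over all probe sets, 4 had an unadjusted p under 0.05 with higher signal and 0 with lower signal, where 7.1% and 7.03% of all probe sets did. The median difference was -0.0088. The 4 were ADAM28, a membrane protease that cuts IGFBP3 (4.04, 4.15 and 4.19 in control, 5.81, 5.11 and 5.71 in IR-A tumours, difference 1.42, SE 0.19), the complement proteases, reported to cut IGFBP5, C1S (2.44, SE 0.53) and C1R (1.03, SE 0.25), and the lysosomal protease cathepsin D, CTSD (0.54, SE 0.17). Their adjusted p values ran from 0.121 for ADAM28 to 0.245 for CTSD. PAPPA, PAPPA2 and STC1 differed by -0.0088, 0.026 and -0.11. STC2 differed by -0.74 (SE 0.53), with control tumour 3 at 8.11 and the other 5 tumours between 5.76 and 6.53.

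Among 10 proteins with an IGFBP-like N-terminal domain, 1 had an unadjusted p under 0.05 in limma, with lower signal, where 14.1% of all probe sets had such a p in either direction. This was CCN2, connective tissue growth factor, at 9.43, 8.65 and 8.97 in control and 7.87, 8.09 and 8.65 in IR-A tumours, a difference of -0.82 (SE 0.26, adjusted p = 0.258). The groups of CCN2 did not overlap, but barely. The lowest control, tumour 2, and the highest IR-A tumour, tumour 3, both read 8.65 after rounding. Its relative CCN1, which did not meet the rule for naming and was chosen after its values were seen, differed by -0.96 (SE 0.44) with overlapping groups.

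Proteins that bind an IGFBP apart from its ligands, such as integrins, LRP1 and matrix proteins, were measured for 15 of 16 listed genes. The median difference was 0.23, with 12 above 0, and 4 of 15 had an unadjusted p under 0.05 in limma, all with higher signal, where 7.1% of all probe sets did. The integrin subunits ITGA5, of the fibronectin receptor that IGFBP1 binds, and ITGB3 differed by 1.47 (SE 0.24) and 1.34 (SE 0.27), with adjusted p values of 0.131 and 0.148. ITGA5 read 6.08, 7.04 and 6.81 in control and 8.21, 8.11 and 8.01 in IR-A tumours, so its groups did not overlap. The matrix and plasma protein vitronectin, VTN, differed by 0.80 (SE 0.26) and transferrin, TF, by 0.35 (SE 0.12). ITGB1, the partner of ITGA5, differed by 0.21 (SE 0.10, adjusted p = 0.396), and TMEM219, described as a receptor of IGFBP3, by -0.045.

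Of regulators of IGFBP transcription, 20 of 26 listed were analysed here, with a median difference of -0.032. In limma 2 of 20 had an unadjusted p under 0.05 with higher signal and 2 with lower signal, where 7.1% and 7.03% of all probe sets did, and none passed after adjustment. These shares are near the background. Those higher were the nuclear receptor PPARA (1.19, SE 0.30, adjusted p = 0.190) and the growth hormone receptor kinase JAK2 (0.51, SE 0.15). Those lower were TGFB1, a growth factor that raises IGFBP3 in many cells (-1.08, SE 0.25, adjusted p = 0.165), and the stress factor ATF4 (-0.33, SE 0.13). FOXO1, which activates IGFBP1, differed by -0.14 (SE 0.18) and FOXO3 by -0.30 (SE 0.17). The liver factors FOXA2 and FOXA3 differed by -0.060 and -0.013.

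**Figure D5:**
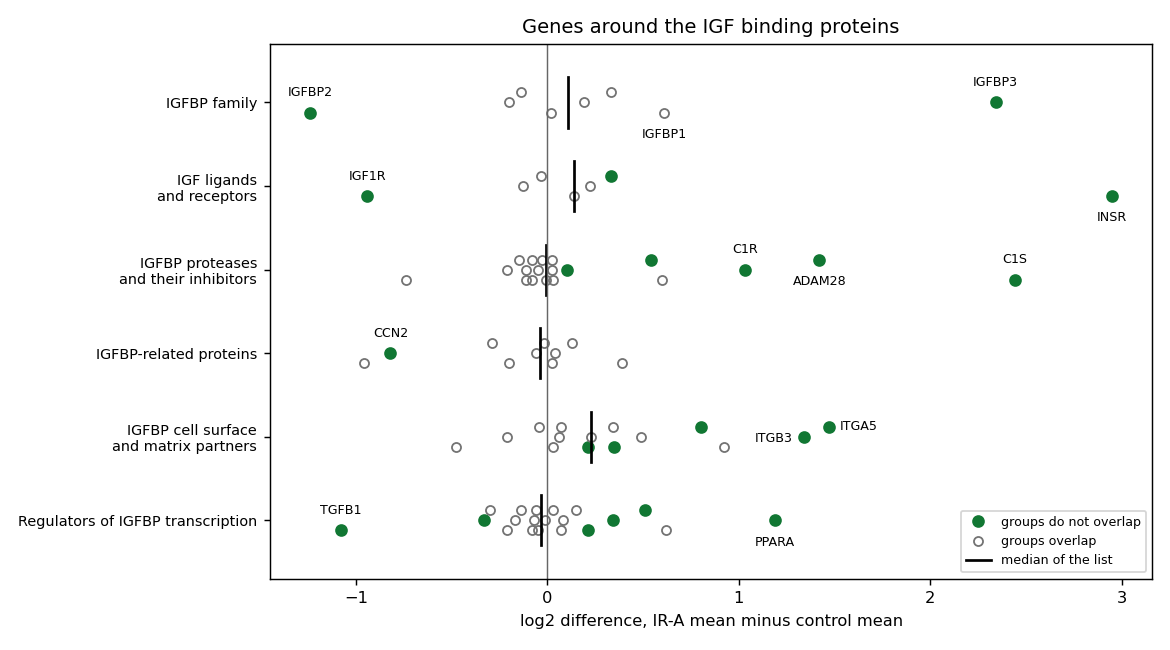
Log2 difference, IR-A mean minus control mean (horizontal axis), of each measured gene in 6 lists. Filled green points are genes whose groups do not overlap, open points those whose groups overlap, and black lines are list medians, which lie between -0.041 and 0.23; points are set apart vertically only for legibility.

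Several members are also made by stromal cells, so markers of cells that the mouse could bring were read in the same tumours. The probe sets are of human genes and register mouse RNA only where it binds to them. In bulk tumours fewer cells of a type and less RNA per cell cannot be told apart. At an unadjusted limma p under 0.05, the rule used for the counts that follow, 7.1% of all probe sets were higher and 7.03% lower. Fibroblast markers had a summed linear signal of 354 to 550 in control and 423 to 469 in IR-A tumours, and 3 of 15 (COL1A1, COL1A2 and LUM) were higher. Their median difference was 0.10, with 5 of 15 below 0. PDGFRA, of the same list, read 7.86, 6.31 and 5.43 in control tumours 1 to 3. Endothelial markers summed to 281 to 326 in control and 315 to 324 in IR-A tumours, with 1 of 14 (PECAM1) higher. Their median difference was -0.042, with 9 of 14 below 0. Macrophage markers summed to 1230 to 1950 in control and 2020 to 2630 in IR-A tumours, with 2 of 15 higher (CD68 and TYROBP) and 1 lower (FCER1G). The macrophage sum was mostly CD68, at 9.94, 10.35 and 10.70 in control and 11.13, 11.01 and 10.73 in IR-A tumours. The median difference of these markers was -0.0095, with 9 of 15 below 0. Smooth muscle and pericyte markers summed to 272 to 344 in control and 241 to 275 in IR-A tumours, with 1 of 9 lower (KCNJ8). None is at 0 on this scale, but 8, 12, 11 and 4 genes of these lists were below the median probe set, among them DCN, CDH5 and PTPRC. Hepatocyte and Huh7 markers summed to 59500 to 70600 in control and 72200 to 77800 in IR-A tumours, with 6 of 14 higher. The part of these cells in the differences of the binding proteins was not tested.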

How the data were processed

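The 500 ng of Trizol-extracted total RNA per tumour was labelled for Affymetrix whole-transcript arrays, per the labels' protocols. The authors deposited 1 log2 signal for each probe set on each array. The submitters' processing notes name RMA (background correction, normalization, probe summary) and Partek, with no version. The log2 scale was read from the values. The array model, the probe set definition and the genome build are not stated in the labels. RMA compresses differences of dim probe sets.

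GEO's probe annotation named 23934 of 24726 probe sets, and the RefSeq table of GRCh38.p14 gave current symbols and gene order. IR-A and control tumours (3 each) were compared with limma 3.58.1 in R 4.3.3 (lmFit, eBayes, no filter), adjusted by Benjamini-Hochberg over all probe sets at 0.05. Scripts were tested on simulated data. Exact permutation tests used scipy 1.17.1. The members and lists were chosen with earlier results of these data known. Named genes were the members, INSR, the IGF ligands and receptors, and from each other list up to 6 genes with unadjusted p under 0.05, or the 2 of smallest p, plus the 3 closest profiles and measured neighbours of members. Other genes of the lists are named as examples chosen after their values were seen. Alternatives changed the normalization, dim filters, moderation, weights, a block by replicate number, thresholds and tumours.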

Additional observations from a re-analysis of the deposited data

How the results depend on the processing

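The number of members called was 0 as reported and 1, IGFBP3, without the dimmest 25% or 50% of probe sets, with array weights, and at an adjusted p under 0.1; it was 2 at an unadjusted p under 0.05. With 1 tumour left out it ran from 0 to 1. The number of all probe sets called, 0 as reported, was 14 and 20 without the dimmest 25% and 50%, 11 with array weights, 18 at an adjusted p under 0.1 and 3493 at an unadjusted p under 0.05. It ran from 0 to 308 with 1 tumour left out, with calls only without control tumour 2. Filters leave fewer probe sets to adjust over and also change the moderated test. The limma unadjusted p of IGFBP3 was 5.23e-05 as reported, and 2.38e-05 and 1.95e-05 without the dimmest 25% and 50%. Why the counts moved was not tested. The median difference of the members (0.10) ran from 0.025 (without control tumour 3) to 0.23 (without control tumour 2), and the members whose groups do not overlap from 2 to 4. That count was 4 of 8 without IR-A tumour 1 or 3, where 23% and 26.8% of all probe sets did not overlap, and 3 of 8 without control tumour 2, where 38.8% did not. IGFBP7 turned from -0.14 to 0.013 with array weights and ran from -0.35 to 0.23 with 1 tumour left out. IGFBP5 ran from -0.0080 to 0.038. The other 6 members kept their direction in all 14 settings. Among these, the dim filters, the changes of moderation and the replicate block leave every difference unchanged by construction. With the replicate number as a block, 0 probe sets and 0 members were called. IGFBP3, whose difference of 2.34 this block cannot change, had a limma adjusted p of 0.342. Deviations of same-numbered tumours had correlations of -0.294, -0.358 and 0.0203, and no tumour correlated best with its own number. The labels do not say whether the numbers pair the tumours, and 3 tumours per group cannot decide it. Signal over background was not measured, so dim members such as IGFBP7 are least certain.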
